A study of Mus musculus with 8 samples.

Results

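The genes described here encode enzymes that write and erase chemical marks on histones and DNA, in activated mouse CD8 T cells grown without or with o-phosphoethanolamine. They were chosen by gene symbol (the Kdm, Kmt2, Kmt5, Setd, Ezh, Dot1l, Prmt, Kat, Hdac, Sirt, Tet and Dnmt symbols of the deposited table) and not by their values. The symbols matched 82 rows, of which 4 had no count in any library (Dnmt3l-ps1, Dnmt3a-ps1, Kat2b-ps and Kdm4dl), and the other 78 are the members, out of 17625 genes with any count. The table uses some older symbols: Setd8 is the present Kmt5a and Prmt10 the present Prmt9. The methyltransferases Suv420h1 and Suv420h2, now Kmt5b and Kmt5c, were missed by the symbols for the same reason and are given below as other genes of the pathway.

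The series holds 8 bulk RNA-seq libraries, 4 per medium. CD8 T cells of OT-I mice, which carry a transgenic T cell receptor for the ovalbumin peptide SIINFEKL, were activated with that peptide and kept with IL-2 for 5 days. The control group grew in RPMI with 10% FBS, and the treated group in the same medium with 470 µM o-phosphoethanolamine (pEtn), a precursor of the membrane lipid phosphatidylethanolamine. Every library therefore comes from peptide-activated, IL-2-cultured cells of 1 strain, and the design has no unactivated cells and no second dose. The labels number the libraries of each medium 1 to 4 and do not say whether they came from separate mice or cultures, so the p-values measure only the spread between these libraries.

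Histone methyltransferases and DNA methyltransferases take their methyl group from S-adenosylmethionine, and acetyltransferases take acetyl groups from acetyl-CoA. The JmjC histone demethylases and the Tet enzymes, which oxidise methylated cytosine, use oxygen and 2-oxoglutarate, while sirtuins remove acyl groups with NAD. In CD8 T cells several of these enzymes, among them Ezh2, Dot1l, Dnmt3a and Tet2, are known to influence how activated cells divide into effector and memory fates.

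Total counts ran from 29223765 to 35504571 per library. Markers of CD8 T cells were abundant (Cd8a at 316 CPM in RPMI and 339 CPM with pEtn), while the B cell markers had means of at most 0.103 CPM, Ms4a1 among them at 0, and Cd4 and Foxp3 means of at most 0.317 CPM. Some markers listed for other cell types were at clear levels: Gata3 at 16.5 CPM in RPMI and 20.9 CPM with pEtn, Klrb1c of NK cells at 21.9 and 15.9 CPM, and Xcr1 of dendritic cells at 20.01 and 11.1 CPM, none of them called. Zbtb7b, a regulator of the CD4 lineage, was at 20.1 CPM in RPMI and 32.2 CPM with pEtn (edgeR adjusted p = 0.0262, lost without RPMI replicate 3 or 4 or without pEtn replicate 1, 2 or 4). Replicates 3 and 4 of each medium were far closer to each other than to replicates 1 and 2: counts of the pair gave a chi-square per gene of 11.2 (RPMI) and 5.04 (pEtn), where other pairs within a medium gave 51.1 to 107. The nuclear RNAs Malat1 and Neat1 followed the same split in RPMI, Malat1 with 19.7 and 25.6 CPM in replicates 1 and 2 and with 7.03 and 6.73 CPM in replicates 3 and 4. The mitochondrial genome gave 1.91% ± 0.49 of counts in RPMI and 2.80% ± 0.13 with pEtn (SD, n = 4 each; exact permutation test, two-sided p = 0.0286, the smallest that 4 against 4 allows, and 0.314 adjusted over 11 library measures). Of 20 mitotic genes, 9 were called higher with pEtn (against 5.22% of all genes tested) and none lower, and of 21 replication genes 1 was called lower (Ccne2, against 7.56%) and none higher. The part of these measures in the results below was not tested.

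Of the 78 members, 71 had enough counts to be tested, and 13 of them (18.3%) changed between the media, against 12.8% of all 11862 genes tested. Lower with pEtn were 10 members (14.1%, against 7.56% of all genes): the H3K79 methyltransferase Dot1l, the deacetylases Hdac7 and Hdac10, the DNA dioxygenase Tet2, the arginine methyltransferases Prmt1, Prmt3, Prmt5 and Prmt7, the acetyltransferase Kat2a and the demethylase Kdm6b. Higher with pEtn were 3 members (4.23%, against 5.22%): the sirtuin Sirt7, the acetyltransferase Kat2b and the DNA dioxygenase Tet1. The median log2 fold change over the 71 members was 0.03, beside 0.02 over all genes tested. In bulk RNA, fewer cells that express a gene and less of its RNA per cell cannot be told apart. Calls are genes with a Benjamini-Hochberg adjusted p under 0.05 over all genes in edgeR's quasi-likelihood test, and levels are CPM, each library's counts scaled to a common total after TMM.

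The number of calls depended on how replicates were treated. With the replicate number as a block, 28 members were called, 14 in each direction and all 13 among them, while the share of all genes called rose to 32.3%. When replicates 3 and 4 of each medium were summed into 1 library, 3 members were called (Dot1l, Hdac7 and Tet2, all lower), against 2.71% of all genes (2.05% lower). With the block on these sums 16 were called, 4 higher (against 8.71% of all genes) and 12 lower (10.7%). Replicates 1 and 2 alone gave no member higher (0.0825% of all genes) and 1 lower (0.181%), and replicates 3 and 4 alone gave 44 of 71, against 48.1% of all genes. DESeq2 called 6 members higher (7.49% of all genes) and 14 lower (10.1%).

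**Figure D1:**
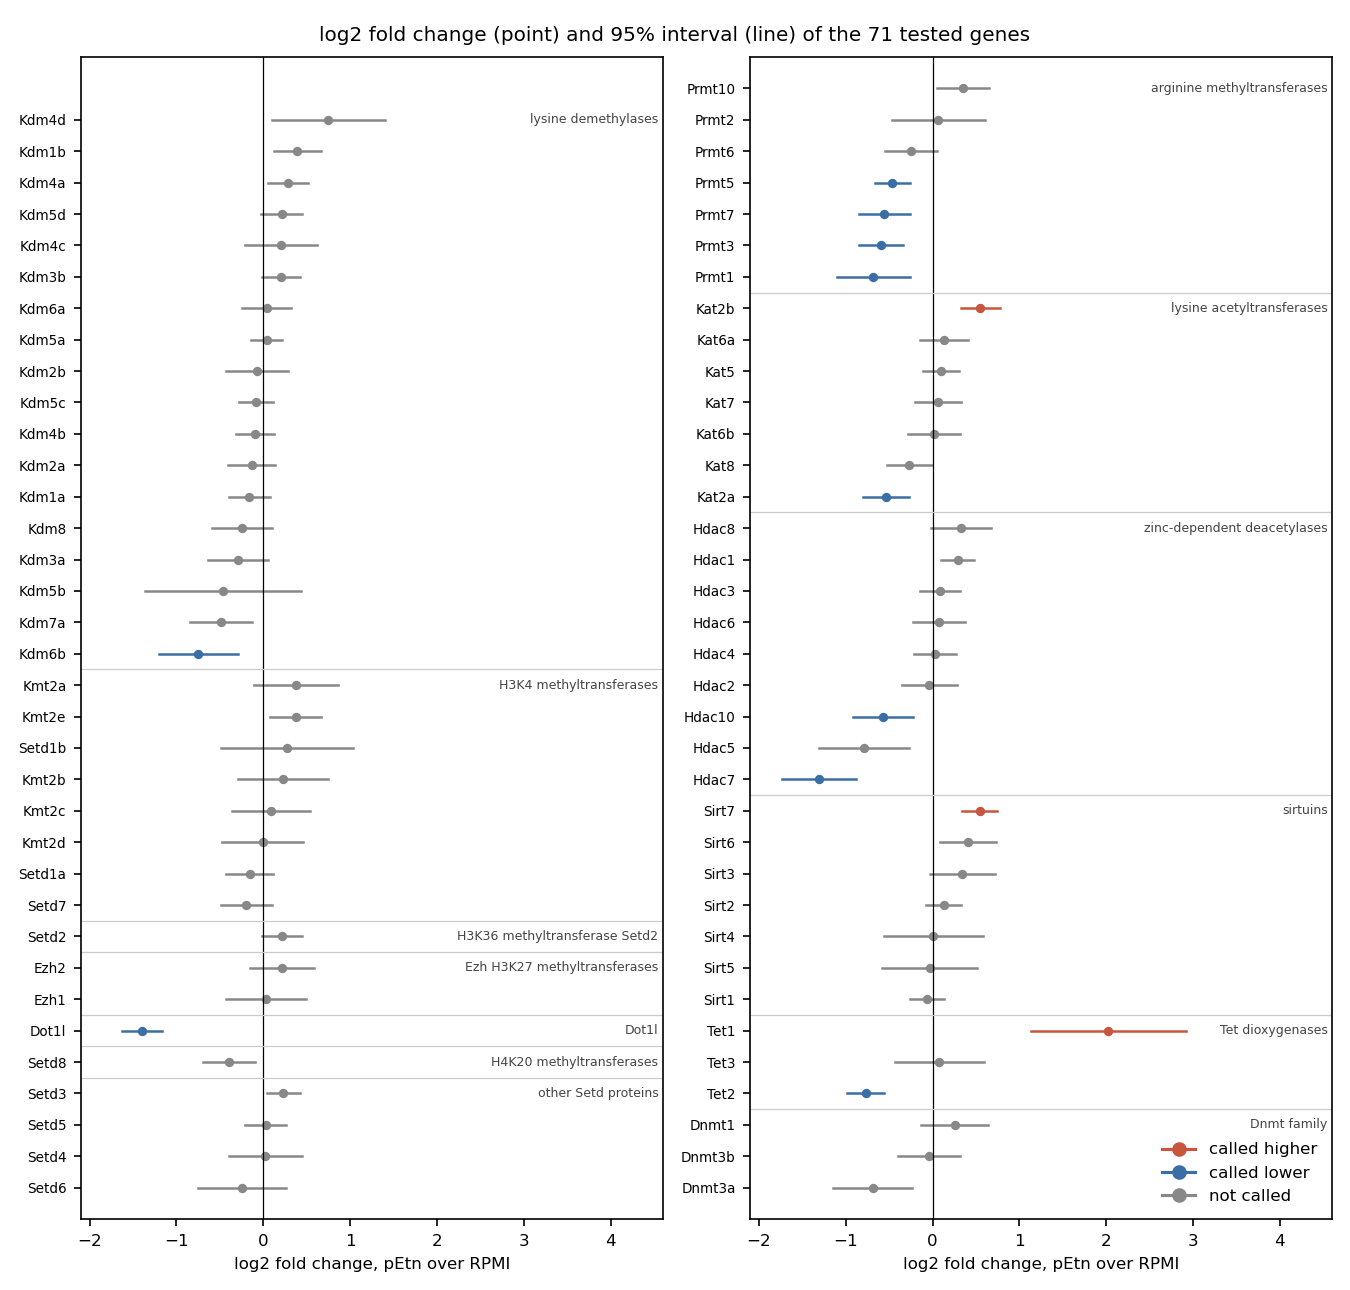
Each point is the log2 fold change of 1 tested member (pEtn over RPMI, x axis) and its line the 95% interval, grouped by enzyme family, with called genes in colour. Dot1l at -1.40 and Tet1 at 2.03 mark the ends, and 55 of the 58 members that were not called lie within 0.5 of no change.

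Of the members that were not called, 53 of 58 had a 95% interval that stayed within 1 log2 unit of no change, so a larger difference was outside the interval for these. The other 5 were Dnmt3a, Hdac5, Kdm4d, Kdm5b and Setd1b. The 4 RPMI and 4 pEtn libraries did not overlap for 21 of the 71 members (29.6%; 10 higher and 11 lower with pEtn), against 20.4% of all genes tested, and 12 of the 13 called members were among them.

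**Figure D2:**
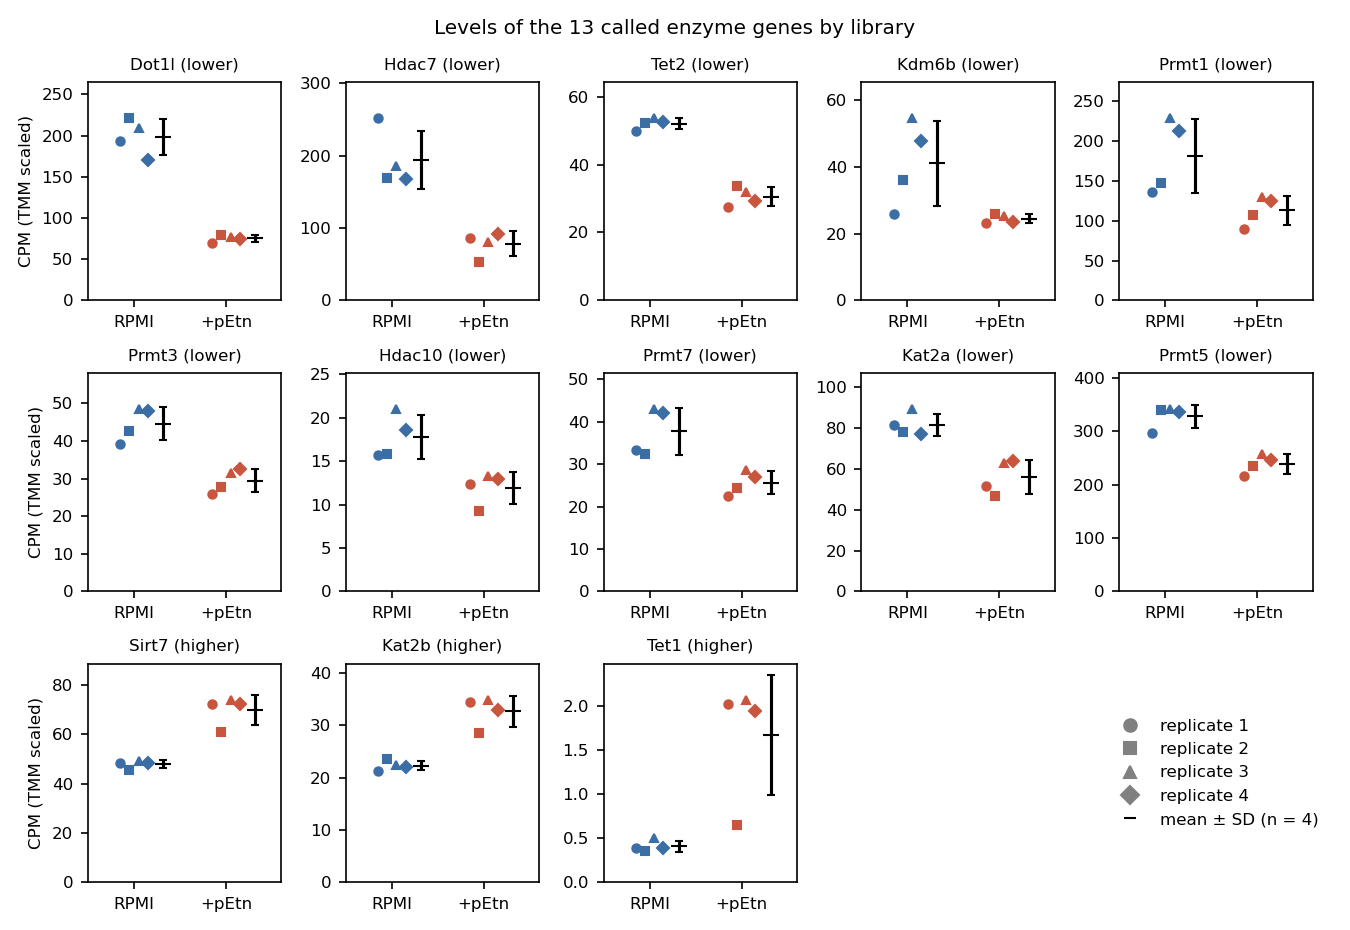
CPM of the 13 called members in each library (y axis, starting at 0), with 1 symbol per replicate number and the mean ± SD of 4 libraries as a bar. The media overlap for Kdm6b alone, where RPMI replicate 1 at 25.8 CPM lies below pEtn replicate 2 at 26.0 CPM.

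Among the enzymes that methylate histone lysines, Dot1l, the methyltransferase of H3K79 in the body of transcribed genes, had the smallest p of all members. It stood at 194, 221, 209 and 169.9 CPM in RPMI replicates 1 to 4, and at 69.9, 79.4, 77.4 and 74.7 CPM in the same replicates with pEtn. All pEtn libraries were far below all RPMI libraries, and they varied less among themselves. The mean fell from 199 ± 22.2 to 75.4 ± 4.12 CPM (SD, n = 4), a log2 fold change of -1.40 (SE 0.10; edgeR adjusted p = 0.0002). Dot1l was also the sole member called when replicates 1 and 2 alone were used, a fit that called 0.264% of all genes.

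None of the 8 genes of the H3K4 methyltransferase group was called (Kmt2a to Kmt2e, Setd1a, Setd1b and Setd7, against 12.8% of all genes tested). Genes were placed in this group, Kmt2e included, by symbol and not by shown enzyme activity. Kmt2a, which encodes MLL1, had a log2 fold change of 0.37 (SE 0.21; edgeR adjusted p = 0.290) and Kmt2d, which writes monomethylated H3K4 at enhancers, one of -0.01 (SE 0.21; adjusted p = 0.985). With the replicate block, Kmt2a (adjusted p = 0.0168), Kmt2e (0.0269) and Kmt2b (0.0448) were called higher. None of these was called with the block once replicates 3 and 4 were summed (adjusted p = 0.0677, 0.114 and 0.111). Kmt2e stood at 176, 175, 120.2 and 129.8 CPM in RPMI and at 190.0, 195, 191 and 202 CPM with pEtn. Its libraries did not overlap between media, and the low values were the RPMI replicates 3 and 4.

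Setd2, the trimethylase of H3K36, had means of 145 ± 9.02 CPM in RPMI and 169 ± 19.99 CPM with pEtn, a log2 fold change of 0.22 (SE 0.10; edgeR adjusted p = 0.199). The H3K27 methyltransferases of Polycomb repressive complex 2 were not called either. Ezh2, the form of dividing cells, had means of 139.7 ± 20.6 and 162 ± 34.3 CPM (log2 fold change 0.21, SE 0.16; adjusted p = 0.440). Ezh1, its partly redundant relative, had means of 32.9 ± 8.84 and 33.6 ± 6.88 CPM, and a log2 fold change of 0.03 (SE 0.20; adjusted p = 0.938) whose sign depended on the libraries used.

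Setd8, the monomethylase of H4K20 with a role in the cell cycle, stood at 174, 190.3, 206 and 193 CPM in RPMI and at 112, 137, 171 and 159.7 CPM with pEtn. The media did not overlap, but the difference missed the threshold (log2 fold change -0.40, SE 0.13; edgeR adjusted p = 0.0803) and was called with the replicate block (adjusted p = 0.00702). The enzymes that add further methyl groups to H4K20, outside the symbol rule, gave 1 call: Suv420h2 was higher with pEtn (14.5 ± 0.92 to 19.98 ± 0.99 CPM, log2 fold change 0.46, SE 0.10; adjusted p = 0.0172), a call lost without RPMI replicate 3, RPMI replicate 4 or pEtn replicate 4. Suv420h1 had a log2 fold change of -0.16 (adjusted p = 0.406). Of the 4 remaining Setd genes none was called. Setd3, an actin histidine methyltransferase, did not overlap between media at 122 ± 7.80 and 143 ± 7.42 CPM (log2 fold change 0.23, SE 0.09; adjusted p = 0.108, 0.0396 with the replicate block and 0.148 with the block on summed replicates 3 and 4).

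A further 21 tested genes for lysine and related histone methyltransferases were listed outside the symbol rule. The list median was 0.11, and 5 genes were called, all lower with pEtn (against 7.56% of all genes tested). They were Smyd5 (56.2 ± 4.62 to 26.5 ± 2.87 CPM, log2 fold change -1.09, SE 0.11; edgeR adjusted p = 0.0008), Smyd2 (-0.70, SE 0.11; adjusted p = 0.0038), Smyd3 (-0.76, SE 0.12; adjusted p = 0.0039), Carm1 and Suv39h2. Smyd2 and Smyd3 also methylate proteins other than histones. Suv39h2, an H3K9 methyltransferase, had a log2 fold change of -0.50 (SE 0.14; adjusted p = 0.0451) that stayed called only without RPMI replicate 3 or without pEtn replicate 2.

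Of 7 tested arginine methyltransferases 4 were lower with pEtn (against 7.56% of all genes tested) and none higher, with a family median of -0.46. None of the 4 was called with replicates 3 and 4 summed, and all 4 with the block on these sums. Prmt1 is the main enzyme for asymmetric dimethylarginine in mammalian cells and Prmt5 the main one for symmetric dimethylarginine. Prmt3 acts in the cytosol on a ribosomal protein, and Prmt7 writes monomethylarginine. Per transcript length, Prmt5 at 216 ± 11.1 TPM and Prmt1 at 187 ± 45.2 TPM in RPMI lay above Prmt3 at 34.6 ± 2.90 TPM and Prmt7 at 16.0 ± 2.14 TPM (TPM, the length-scaled measure that the authors deposited).

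The 250 bases before the first listed RefSeq start of these 4 genes, and of Dot1l, are shown because the genes fell together. They are RefSeq sequences on GRCm38.p6, in lower case and 5′ to 3′ on the gene's strand, with capitals for CACGTG (the E-box bound by MYC and its relatives), for CCAAT or its complement ATTGG, and for GGGCGG or its complement CCGCCC (the GC box). Windows lie at chr7:44986421-44986670 (minus strand) for Prmt1, chr7:49778108-49778357 (plus) for Prmt3, chr14:54517471-54517720 (minus) for Prmt5, chr8:106210804-106211053 (plus) for Prmt7 and chr10:80754953-80755202 (plus) for Dot1l.
Prmt1: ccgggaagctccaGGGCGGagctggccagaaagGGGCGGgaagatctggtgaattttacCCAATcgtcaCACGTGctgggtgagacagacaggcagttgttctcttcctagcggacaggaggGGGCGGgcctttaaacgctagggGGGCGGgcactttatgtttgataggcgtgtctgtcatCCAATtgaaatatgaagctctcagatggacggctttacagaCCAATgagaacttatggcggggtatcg
Prmt3: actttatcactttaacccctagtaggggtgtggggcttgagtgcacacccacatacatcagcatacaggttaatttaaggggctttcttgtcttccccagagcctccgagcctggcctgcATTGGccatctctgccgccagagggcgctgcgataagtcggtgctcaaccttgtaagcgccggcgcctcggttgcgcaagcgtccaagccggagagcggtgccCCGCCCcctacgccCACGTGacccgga
Prmt5: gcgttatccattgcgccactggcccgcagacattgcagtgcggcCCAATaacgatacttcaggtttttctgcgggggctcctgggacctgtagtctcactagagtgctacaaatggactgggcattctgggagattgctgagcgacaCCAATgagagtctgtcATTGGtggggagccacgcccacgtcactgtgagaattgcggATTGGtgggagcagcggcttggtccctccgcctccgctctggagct
Prmt7: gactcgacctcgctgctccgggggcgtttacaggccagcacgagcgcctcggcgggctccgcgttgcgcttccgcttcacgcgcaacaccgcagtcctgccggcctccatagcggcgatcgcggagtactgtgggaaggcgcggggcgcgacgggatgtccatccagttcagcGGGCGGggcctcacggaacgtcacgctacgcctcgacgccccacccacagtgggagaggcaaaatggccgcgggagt
Dot1l: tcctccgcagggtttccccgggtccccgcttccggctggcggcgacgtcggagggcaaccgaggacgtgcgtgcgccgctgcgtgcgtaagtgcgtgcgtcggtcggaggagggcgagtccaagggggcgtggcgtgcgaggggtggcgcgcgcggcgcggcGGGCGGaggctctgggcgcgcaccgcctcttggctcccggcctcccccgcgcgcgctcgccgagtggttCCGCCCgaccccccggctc

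CACGTG was found in the windows of Prmt1 (181 bases before the start) and Prmt3 (13 bases before), and not in those of Prmt5, Prmt7 and Dot1l. CCAAT in either strand was found 3 times in Prmt1, 4 times in Prmt5 and 1 time in Prmt3, and GGGCGG in either strand 4 times in Prmt1, 2 times in Dot1l and 1 time each in Prmt3 and Prmt7. No 2 matches overlapped in the windows shown. Of all 32851 RefSeq windows of this length 6.02% held CACGTG, 33.8% CCAAT and 32.7% GGGCGG. Of the 90 windows of the 64 members with a match by symbol, 8.89%, 38.9% and 58.9% did.

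Prmt5 stood at 297, 340.1, 342 and 336 CPM in RPMI and at 216, 235, 258 and 246 CPM with pEtn. No pEtn library reached the lowest RPMI library, and each replicate number showed a similar difference. The mean fell from 329 ± 21.4 to 239 ± 18.0 CPM (log2 fold change -0.46, SE 0.09; edgeR adjusted p = 0.0103). Prmt3 stood at 39.3, 42.6, 48.5 and 48.0 CPM in RPMI and at 26.0, 27.9, 31.4 and 32.6 CPM with pEtn. These did not overlap either, and the 4 same-numbered differences ran from -0.63 to -0.56 on the log2 scale. Its mean fell from 44.6 ± 4.44 to 29.5 ± 3.07 CPM (log2 fold change -0.60, SE 0.11; adjusted p = 0.0098).

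Prmt1 stood at 136, 147, 229 and 212 CPM in RPMI and at 89.4, 107, 129.9 and 125 CPM with pEtn. Replicates 3 and 4 were higher than 1 and 2 in both media, so the spread within a medium was wide although the media did not overlap. The mean fell from 181 ± 46.2 to 113 ± 18.3 CPM (log2 fold change -0.68, SE 0.19; edgeR adjusted p = 0.0425, and 0.0008 with the replicate block). Prmt7 stood at 33.4, 32.5, 43.0 and 42.0 CPM in RPMI and at 22.4, 24.4, 28.6 and 27.03 CPM with pEtn, again without overlap. Its mean fell from 37.7 ± 5.52 to 25.6 ± 2.75 CPM (log2 fold change -0.56, SE 0.13; adjusted p = 0.0229). The Prmt1 call was kept only without RPMI replicate 1 or 2, and that of Prmt7 was lost without RPMI replicate 3 or 4 or without pEtn replicate 1 or 4.

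The other arginine methyltransferases did not all follow. Prmt10 had means of 13.4 ± 1.64 CPM in RPMI and 17.0 ± 1.97 CPM with pEtn, without overlap, and a positive log2 fold change of 0.35 (SE 0.13; edgeR adjusted p = 0.124, 0.0248 with the replicate block and 0.0921 with the block on summed replicates 3 and 4). Prmt2 and Prmt6 had log2 fold changes of 0.07 (SE 0.24) and -0.25 (SE 0.13), and neither was called. Prmt8 had 3 counts in all libraries together and was not tested. Carm1, the remaining histone arginine methyltransferase, which the symbol rule did not include, fell from 82.6 ± 7.11 to 53.0 ± 10.3 CPM (log2 fold change -0.64, SE 0.14; adjusted p = 0.0172, and 0.0573 without RPMI replicate 3).

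Of 18 tested lysine demethylases, 1 was called (against 12.8% of all genes tested). Kdm6b, which removes methyl groups from H3K27 and is induced by many immune signals, stood at 25.8, 35.96, 54.6 and 47.8 CPM in RPMI and at 23.1, 26.0, 25.2 and 23.4 CPM with pEtn. The pEtn libraries were alike, while the RPMI libraries were spread widely and the lowest of them fell inside the pEtn range. The mean fell from 41.0 ± 12.8 to 24.4 ± 1.40 CPM (log2 fold change -0.75, SE 0.20; edgeR adjusted p = 0.0410). The call was kept only without RPMI replicate 1 or 2, and with the block on summed replicates the adjusted p was 0.0504. The antisense gene Kdm6bos had at most 4 counts in a library, and since the use of strand is not given in the sources used here, reads of the pair cannot be told apart.

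Kdm6a, the X-linked H3K27 demethylase with a close copy on the Y chromosome, had means of 57.7 ± 10.1 and 59.2 ± 3.12 CPM and a log2 fold change of 0.04 (SE 0.13; edgeR adjusted p = 0.883). Kdm1a, the flavin-dependent H3K4 demethylase LSD1, had a log2 fold change of -0.16 (SE 0.10; adjusted p = 0.353). Its relative Kdm1b did not overlap between media, at 13.5, 14.4, 12.4 and 10.5 CPM in RPMI and 17.3, 16.9, 16.0 and 16.6 CPM with pEtn, and missed the threshold (log2 fold change 0.39, SE 0.12; adjusted p = 0.0650). With the replicate block Kdm1b was called (adjusted p = 0.0181), as were Kdm4a (0.0177) and Kdm4d (0.0222), all higher, and Kdm7a (0.0305), lower. With the block on summed replicates 3 and 4 none of these was called (adjusted p = 0.0645, 0.0628, 0.0584 and 0.0993 in that order). Kdm4d was a low gene at 1.18 ± 0.35 and 1.99 ± 0.42 CPM, without overlap (log2 fold change 0.75, SE 0.29; adjusted p = 0.127), and shares sequence with a near copy, Kdm4dl, listed without counts. The list of 11 other JmjC proteins and demethylases gave 1 call (against 12.8% of all genes tested). It was Phf8, a demethylase of H3K9 and H4K20, higher with pEtn (55.0 ± 1.85 to 69.0 ± 2.17 CPM, log2 fold change 0.33, SE 0.08; adjusted p = 0.0243, kept only without RPMI replicate 1 or 2).

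Among 7 tested acetyltransferases, 1 was called lower with pEtn (against 7.56% of all genes tested) and 1 higher (against 5.22%). These were the paralogs Kat2a (GCN5) and Kat2b (PCAF), which occupy the same position in SAGA-type complexes and moved in opposite directions. Kat2a stood at 81.7, 78.2, 89.3 and 77.2 CPM in RPMI and at 51.7, 46.7, 62.8 and 63.6 CPM with pEtn. Kat2b stood at 21.3, 23.5, 22.4 and 22.0 CPM in RPMI and at 34.4, 28.4, 34.8 and 33.0 CPM with pEtn. For both genes the media did not overlap. Kat2a fell from 81.6 ± 5.49 to 56.2 ± 8.33 CPM (log2 fold change -0.54, SE 0.12; edgeR adjusted p = 0.0173), and Kat2b rose from 22.3 ± 0.92 to 32.6 ± 2.93 CPM (log2 fold change 0.55, SE 0.10; adjusted p = 0.0081). Per transcript length, Kat2a went from 61.1 ± 4.32 to 42.4 ± 6.34 TPM and Kat2b from 11.9 ± 0.45 to 17.6 ± 1.70 TPM, so Kat2a stayed the more abundant of the pair. Leaving out RPMI replicate 3 or pEtn replicate 1 ended the Kat2a call (edgeR adjusted p = 0.0586 and 0.0515), and no single library changed that of Kat2b. With replicates 3 and 4 summed neither was called (edgeR adjusted p = 0.0716 for Kat2a and 0.0872 for Kat2b), and with the block on these sums both were.

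The MYST-family acetyltransferases were not called. Kat6a had means of 191 ± 34.2 and 209.9 ± 4.85 CPM (log2 fold change 0.13, SE 0.12; edgeR adjusted p = 0.519). Kat5, Kat6b and Kat7 had log2 fold changes of 0.09, 0.01 and 0.06. Kat8, the H4K16 acetyltransferase, did not overlap between media at 17.6 ± 1.88 and 14.6 ± 0.90 CPM but was not called (log2 fold change -0.27, SE 0.12; adjusted p = 0.163). Of 25 other acetyltransferases and their complex subunits, 1 was called (against 12.8% of all genes tested). Kansl2, a subunit of the NSL complex in which Kat8 works, fell from 79.5 ± 1.88 to 52.4 ± 2.36 CPM (log2 fold change -0.60, SE 0.08; adjusted p = 0.0020).

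Of 9 tested zinc-dependent deacetylases 2 were called, both lower (against 7.56% of all genes tested). Hdac7, a class IIa enzyme abundant in T cells that represses transcription and leaves the nucleus on receptor signalling, stood at 252, 169, 186 and 168 CPM in RPMI and at 86.8, 53.2, 81.0 and 92.4 CPM with pEtn. The lowest RPMI library was well above the highest pEtn library. The mean fell from 194 ± 39.7 to 78.4 ± 17.4 CPM (log2 fold change -1.31, SE 0.19; edgeR adjusted p = 0.0030). Per transcript length Hdac7 went from 91.7 ± 20.5 to 37.3 ± 8.63 TPM, from above the mean of Hdac2 (69.8 ± 5.5 TPM in RPMI) to below it (68.6 ± 11.6 TPM with pEtn).

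Of the other class IIa enzymes, Hdac5 stood at 37.9, 21.3, 32.2 and 29.6 CPM in RPMI and at 16.5, 11.02, 20.2 and 22.2 CPM with pEtn. It was lower with pEtn in each replicate number, but RPMI replicate 2 lay inside the pEtn range and the difference missed the threshold (log2 fold change -0.79, SE 0.23; edgeR adjusted p = 0.0533, and 0.0026 with the replicate block). Hdac4 had means of 46.8 ± 3.89 and 47.8 ± 5.07 CPM and a log2 fold change of 0.03 (95% interval -0.21 to 0.26), and Hdac9, the fourth enzyme of the class, had 2 counts in all. Hdac10, a polyamine deacetylase, stood at 15.8, 15.8, 21.0 and 18.6 CPM in RPMI and at 12.4, 9.23, 13.2 and 12.9 CPM with pEtn. These did not overlap, and the mean fell from 17.8 ± 2.53 to 11.9 ± 1.84 CPM (log2 fold change -0.58, SE 0.15; adjusted p = 0.0385), a call kept only without RPMI replicate 1 or 2.

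The class I deacetylases, catalytic subunits of the main corepressor complexes, were not called. Hdac1 stood at 189.8, 198, 213 and 222 CPM in RPMI and at 231, 258, 259 and 259 CPM with pEtn. Every pEtn library was above every RPMI library, with a log2 fold change of 0.29 (SE 0.09; edgeR adjusted p = 0.0531, and 0.0122 with the replicate block). Hdac2 and Hdac3 had log2 fold changes of -0.03 (SE 0.14; adjusted p = 0.903) and 0.08 (SE 0.10; adjusted p = 0.653). Of 23 corepressor subunits tested, 3 were called (against 12.8% of all genes tested). Sap30 of the Sin3 complex (23.2 ± 3.71 to 15.0 ± 1.28 CPM; adjusted p = 0.0180) and Rcor2 (1.36 ± 0.29 to 0.66 ± 0.03 CPM; adjusted p = 0.0302) were lower, and Arid4a (46.2 ± 2.16 to 60.1 ± 7.69 CPM; adjusted p = 0.0460) was higher. The Sap30 call was lost without RPMI replicate 3, RPMI replicate 4 or pEtn replicate 1. That of Rcor2 was kept only without RPMI replicate 1 or 2, and that of Arid4a only without pEtn replicate 1.

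Sirt7, the nucleolar sirtuin, which removes acetyl groups from H3K18, was the 1 called gene of 7 sirtuins (against 12.8% of all genes tested). It stood at 48.3, 45.7, 49.2 and 48.4 CPM in RPMI and at 72.4, 60.8, 73.9 and 72.1 CPM with pEtn. The RPMI libraries were nearly equal, and the lowest pEtn library, replicate 2, was still above all of them. The mean rose from 47.9 ± 1.52 to 69.8 ± 6.05 CPM (log2 fold change 0.54, SE 0.09; edgeR adjusted p = 0.0058). Sirt6, another nuclear sirtuin, did not overlap between media at 6.65 ± 0.79 and 8.83 ± 0.69 CPM (log2 fold change 0.41, SE 0.14; adjusted p = 0.0954), and the mitochondrial Sirt3 at 7.94 ± 1.07 and 10.1 ± 1.70 CPM did (0.34, SE 0.17; adjusted p = 0.214). With the replicate block both were called higher (adjusted p = 0.0355 and 0.0407), but not with the block on summed replicates 3 and 4 (0.0822 and 0.105). Sirt1 and Sirt2 had log2 fold changes of -0.06 (95% interval -0.26 to 0.14) and 0.13 (-0.08 to 0.33).

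The enzymes of DNA methylation showed changes in the Tet genes and none past the threshold in the Dnmt genes. Tet2 stood at 49.8, 52.3, 53.7 and 52.4 CPM in RPMI and at 27.3, 33.7, 31.9 and 29.3 CPM with pEtn. The media were far apart relative to their spread. The mean fell from 52.1 ± 1.65 to 30.6 ± 2.80 CPM (log2 fold change -0.77, SE 0.09; edgeR adjusted p = 0.0016). Tet1 was a low gene, at 0.390, 0.352, 0.502 and 0.390 CPM in RPMI and at 2.03, 0.648, 2.07 and 1.95 CPM with pEtn, with 12 to 69 counts per library. All pEtn libraries were above all RPMI libraries, but pEtn replicate 2 was close to the RPMI range. The log2 fold change was 2.03 (SE 0.40; adjusted p = 0.0111), and on deposited TPM values, on the log2(TPM + 1) scale that shrinks low genes, it was 0.27 and not called by limma (adjusted p = 0.0871).

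Tet3 had means of 118 ± 33.0 and 125 ± 32.6 CPM and a log2 fold change of 0.08 (SE 0.23; edgeR adjusted p = 0.857). Per transcript length Tet3 (25.7 ± 7.40 TPM in RPMI, 27.2 ± 7.13 TPM with pEtn) and Tet2 (11.5 ± 0.23 and 6.81 ± 0.53 TPM) lay far above Tet1 (0.072 ± 0.011 and 0.30 ± 0.12 TPM). The rise of Tet1 was thus smaller in absolute level than the fall of Tet2.

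Dnmt1, which copies methylation after replication, had means of 406 ± 50.5 and 486 ± 119.7 CPM and a log2 fold change of 0.26 (SE 0.17; edgeR adjusted p = 0.367). Dnmt3a, the de novo methyltransferase of T cells, stood at 125, 165, 94.9 and 87.5 CPM in RPMI and at 77.1, 87.8, 67.0 and 60.7 CPM with pEtn. It was lower with pEtn in every replicate number, yet pEtn replicate 2 was just inside the RPMI range. The difference missed the threshold without the block (log2 fold change -0.69, SE 0.20; adjusted p = 0.0527) and passed with it (adjusted p = 0.0011). Dnmt3b, at 14.6 ± 3.21 and 14.2 ± 0.90 CPM, had a log2 fold change of -0.04 (SE 0.16; adjusted p = 0.888). Dnmt3l had 3 counts in all, and the antisense genes Dnmt3aos and Dnmt3bos had 8 and 5. Of 16 readers of DNA methylation and related repair and deaminase genes, 1 was called (against 12.8% of all genes tested). Apobec1, a cytidine deaminase, was higher with pEtn at 3.55 ± 0.28 against 2.14 ± 0.26 CPM (log2 fold change 0.73, SE 0.19; adjusted p = 0.0347, kept only without RPMI replicate 2).

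Several of the large H3K4 methyltransferases differed by replicate number more than by medium. Kmt2a stood at 181, 173, 108 and 96.3 CPM in RPMI and at 221, 188, 153 and 161 CPM with pEtn. Setd1b stood at 59.2, 49.1, 24.6 and 18.7 CPM in RPMI and at 60.2, 47.8, 37.5 and 37.5 CPM with pEtn. Replicates 3 and 4 were lower than 1 and 2 in both media for these genes, and likewise for Kmt2b, Kmt2c, Kmt2d and Tet3. The log2 difference of replicates 3 and 4 from 1 and 2 was -1.32 in RPMI and -0.53 with pEtn for Setd1b, and -0.79 and -0.38 for Kmt2a.

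As a result the difference between media could be unlike in the replicate pairs. For Setd1b, pEtn minus RPMI was 0.00 on the log2 scale in replicates 1 and 2 and 0.79 in replicates 3 and 4, and for Kmt2e it was 0.14 and 0.65. Kdm5b, a demethylase of H3K4, stood at 34.2, 64.1, 32.8 and 33.0 CPM in RPMI and at 41.5, 47.5, 14.9 and 15.6 CPM with pEtn. Its difference was -0.14 in replicates 1 and 2 and -1.11 in replicates 3 and 4, and over all libraries it was not called (log2 fold change -0.46, SE 0.40; edgeR adjusted p = 0.501). The difference of Malat1 was -0.17 in replicates 1 and 2 and 1.38 in replicates 3 and 4, and that of Neat1 0.24 and 1.14. Whether these pairs differ in the response to pEtn was not tested. By contrast Tet2 gave -0.74 and -0.79, Prmt3 -0.60 and -0.59, Dot1l -1.48 and -1.32, and Sirt7 0.50 and 0.58 in the same pairs.

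**Figure D3:**
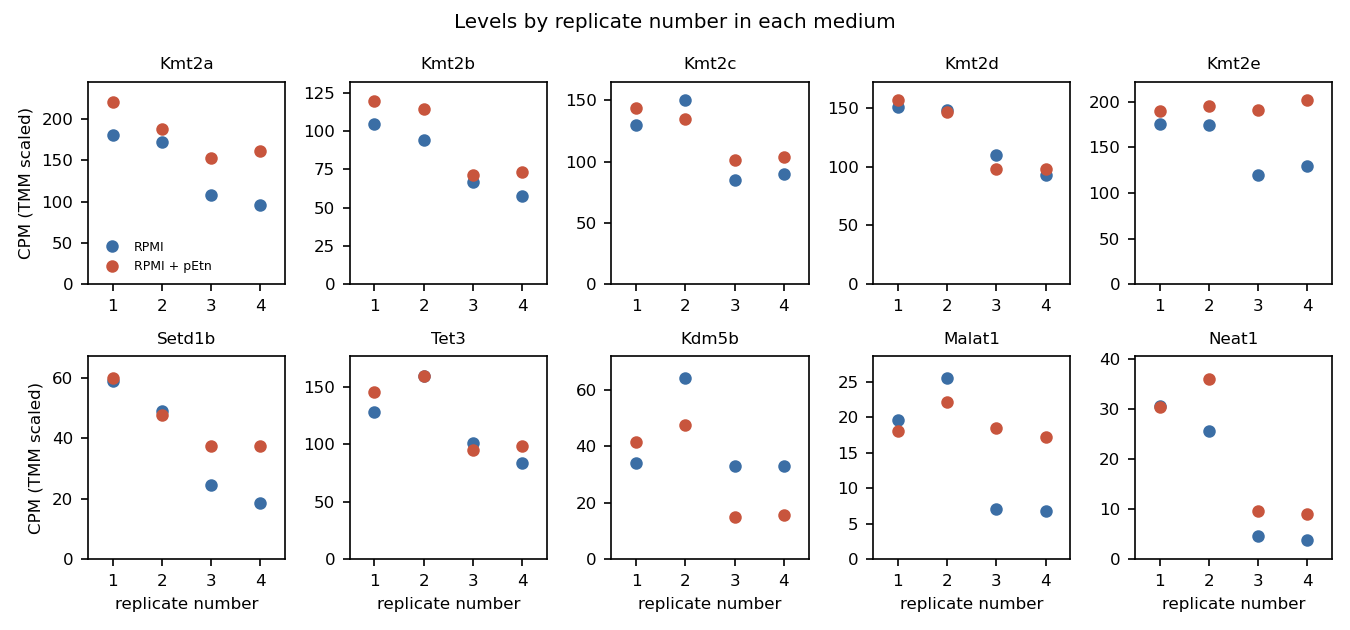
CPM of 8 members and of the nuclear RNAs Malat1 and Neat1 (y axis, starting at 0) by replicate number (x axis), 1 point per library, blue for RPMI and red for pEtn. Kmt2a to Kmt2d, Setd1b and Tet3 step down from replicates 1 and 2 to replicates 3 and 4 in both media, and Kdm5b separates by medium in replicates 3 and 4, at 32.8 and 33.0 against 14.9 and 15.6 CPM.

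Several genes around the methyl donor S-adenosylmethionine, for its supply, use and by-products, were also lower with pEtn. Of 15 tested genes of methionine uptake, S-adenosylmethionine synthesis and its by-products, 7 were lower with pEtn (against 7.56% of all genes tested) and none higher (against 5.22%), with a list median of -0.48. Mat2a, the catalytic subunit of S-adenosylmethionine synthetase, fell from 471 ± 73.3 to 279 ± 28.0 CPM (log2 fold change -0.75, SE 0.13; edgeR adjusted p = 0.0062). Ahcy, which removes S-adenosylhomocysteine, the product that inhibits methyltransferases, fell from 484 ± 59.4 to 269 ± 22.7 CPM (-0.85, SE 0.11; adjusted p = 0.0019). The folate carrier Slc19a1 showed the largest change of the list, from 66.4 ± 6.57 to 22.8 ± 1.95 CPM (-1.54, SE 0.11; adjusted p = 0.0002). Amd1, the S-adenosylmethionine decarboxylase of polyamine synthesis, fell by 0.60 (SE 0.10; adjusted p = 0.0046) on the log2 scale. With replicates 3 and 4 summed, Slc19a1 and Ahcy stayed called (edgeR adjusted p = 0.0050 and 0.0218). The other called genes of the list did not (0.0530 for Amd1 to 0.117 for Mtrr), in a fit that called 2.71% of all genes. Also lower were Mtap, Mtrr and the amino acid transporter Slc7a5, while Mat2b, the regulatory subunit of the synthetase, and Mtr, the methionine synthase that Mtrr keeps active, had log2 fold changes of 0.00 and -0.04 and were not called.

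**Figure D4:**
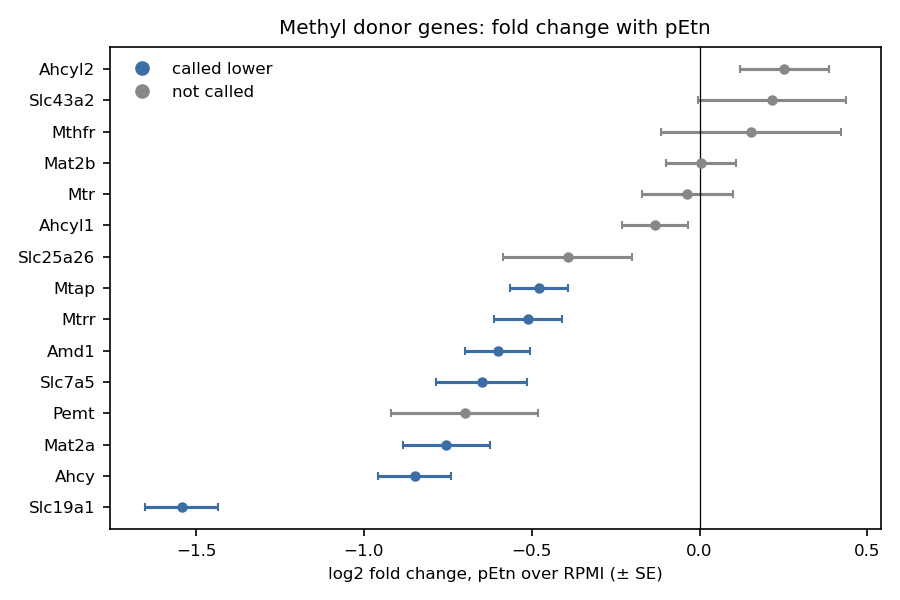
log2 fold change (pEtn over RPMI, x axis) of the 15 tested methyl donor genes, with the SE as a bar and called genes in blue. Slc19a1 at -1.54 is lowest, all 7 called genes lie below zero, and Mat2b and Mtr lie at 0.00 and -0.04.

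Among 26 tested genes of acetyl-CoA, NAD and 2-oxoglutarate supply, 2 were called higher with pEtn (against 5.22% of all genes tested) and 1 lower (against 7.56%). Acss2, which makes acetyl-CoA from acetate in cytosol and nucleus, rose from 20.3 ± 4.46 to 44.4 ± 8.34 CPM (log2 fold change 1.13, SE 0.19; edgeR adjusted p = 0.0055). Idh1, the cytosolic enzyme that makes 2-oxoglutarate, rose from 12.5 ± 1.43 to 22.4 ± 3.39 CPM (0.84, SE 0.14; adjusted p = 0.0061). Acly, the main cytosolic source of acetyl-CoA from citrate, had a log2 fold change of 0.02 (SE 0.08; adjusted p = 0.927).

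Non-catalytic partners of the methyltransferase complexes changed little. None of 9 tested Polycomb repressive complex 2 partners was called (against 12.8% of all genes tested), Suz12 and Eed included (log2 fold changes 0.00 and -0.15). With the replicate block 4 were, 2 higher and 2 lower, in a fit that called 32.3% of all genes. Of 19 subunits of Polycomb repressive complex 1, 1 was called higher (against 5.22% of all genes tested) and 1 lower (against 7.56%). The lower one, Pcgf6, fell from 27.1 ± 3.36 to 15.7 ± 0.77 CPM (log2 fold change -0.79, SE 0.11; edgeR adjusted p = 0.0029). Of 12 partners of the H3K4 methyltransferases 1 was called (against 12.8% of all genes tested). It was the shared core subunit Wdr5, lower with pEtn at 102.6 ± 3.15 against 125 ± 7.84 CPM (-0.29, SE 0.08; adjusted p = 0.0493, kept only without RPMI replicate 2).

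Some members were measured poorly. The 7 that did not pass the filter on low counts were Dnmt3l, Dnmt3aos, Dnmt3bos, Hdac9, Hdac11, Kdm6bos and Prmt8, with 2 to 60 counts over all libraries, so a difference between media was not detectable at this depth. Kdm5c and Kdm5d, a pair on the X and Y chromosomes, share sequence, and the authors' counting could split their reads. Their log2 fold changes were -0.09 (SE 0.09) and 0.21 (SE 0.10), and neither was called.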

How the data were processed

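RNA of the sorted OT-I CD8 T cells was turned into cDNA directly from the lysate by a SmartSeq kit (15 amplification cycles), per the labels' protocols. Per the submitters' processing notes the build is GRCm39. Which aligner, counter, annotation and strand setting were used is not given in the sources used here. The deposited table gives total counts, RPKM and TPM per library and a signal column that the authors named CPM, for 45232 rows. The deposited counts were used for the main test, the TPM values deposited by the authors for levels between genes and 1 alternative, and the RPKM and signal columns deposited by the authors for no test. Every row carried a symbol.

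The test was that of edgeR 4.0.16 under R 4.3.3 (filterByExpr, TMM, robust quasi-likelihood F test, Benjamini-Hochberg over 11862 genes, threshold 0.05). Reads carry no molecular identifiers. The SE of each log2 fold change comes from its F statistic. Alternatives were RLE scaling, DESeq2 1.42.0, other filters (none, or 5 CPM in 4 libraries), a replicate block, replicates 3 and 4 summed, libraries left out, replicate pairs alone and limma 3.58.1 on log2(TPM + 1). Leaving number 3 or number 4 out of both media was added after seeing the data. The members, the 12 lists of other genes and the families were chosen with earlier results of these data known. Full statistics are given for called members, for a set of key enzymes whatever their values, for members whose media do not overlap and for up to 6 called only with the block. Of each list, up to 4 called genes with the smallest p qualify. Some genes that qualify are not reported here. Suv39h2, Mtap, Mtrr, Slc7a5, Suv420h1, Suv420h2, Mat2b, Mtr, Suz12, Eed and Acly were named outside this rule, after their values were seen, as were other members given by value. Sequences are those of RefSeq for GRCm38.p6, and no other coordinates are used because the builds differ.

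Both media share the replicate numbers. Over 11862 genes, the deviations of libraries 1 to 4 from their medium's mean correlated with those of their namesakes at 0.596, 0.580, 0.507 and 0.510. All exceed 0.1, the level set for pairing. The numbers thus count as pairing by these values and the shared numbers alone, because no label explains them. The main test was nevertheless run without the block, and blocked values of members are printed where they change a call. Replicates 3 and 4 of different media correlated at 0.449 and 0.473.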

Additional observations from a re-analysis of the deposited data

Results flagged for a closer look

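Of 142 groups of 4 libraries (71 members in each medium), 8 held 1 library that stood apart by Dixon's gap ratio above its 95% critical value. Chance alone flags about 1 in 20 groups of 4 independent libraries, and replicates 3 and 4 of each medium were far closer to each other than to the rest.

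In RPMI, replicate 2 stood apart for Dnmt1 (331 CPM, ratio 0.966), for Kdm5b (64.1 CPM, 0.956) and for Setd4 (4.63 CPM, 0.878), and replicate 1 for Prmt5 (297 CPM, 0.862). With pEtn, replicate 1 stood apart for Hdac1 (231 CPM, ratio 0.977) and Hdac2 (85.9 CPM, 0.953), and replicate 2 for Sirt7 (60.8 CPM, 0.861) and Tet1 (0.648 CPM, 0.911). Every one of these libraries had number 1 or 2. The Prmt5, Sirt7 and Tet1 calls were kept whichever single library was left out. They were lost with replicates 3 and 4 summed (edgeR adjusted p = 0.0821, 0.0675 and 0.0806) and with number 3 or number 4 left out of both media. With the block on the sums they were called.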

How the results depend on the processing

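With 22 other settings, 750 of 900 values of the 41 named genes kept their direction and side of the threshold, 70 lost a call, 54 gained one and 26 changed sign. Main counts were 3 members higher, 10 lower, 7 families with a call, and 6 and 18 listed genes higher and lower. In that order they were 14, 14, 11, 24 and 35 with the replicate block; 0, 3, 3, 2 and 7 with replicates 3 and 4 summed; 0, 1, 1, 0 and 1 from replicates 1 and 2 alone; 24, 20, 13, 50 and 46 from replicates 3 and 4 alone. Leaving number 3 or number 4 out of both media gave 0, 3, 3, 2 and 6 each. DESeq2 called 6 members higher and 10 listed genes higher, and without a filter 3 listed genes were higher. Leaving out single libraries gave 3 to 4 members higher, 5 to 12 lower (5 without RPMI replicate 3, 6 without pEtn replicate 1 or 4), and 2 to 5 listed genes higher and 14 to 19 lower. The cause of these shifts was not tested.

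No called member changed sign. Uncalled genes did: Dnmt1 to -0.010, Ezh1 to -0.064, Kat6a to -0.045 and Kmt2d to 0.0057 in replicates 1 and 2 alone; Dnmt3b to 0.15 and Kdm6a to -0.10 in replicates 3 and 4 alone; Kmt2d to 0.0013 with these summed; Ezh1 to -0.023 and Kmt2d to 0.033 without number 3 (-0.018 and 0.037 with the block). With 1 library left out, the log2 fold change ranged from -0.14 to 0.094 for Dnmt3b, -0.11 to 0.20 for Ezh1, -0.093 to 0.089 for Hdac2, -0.061 to 0.13 for Kdm6a, -0.14 to 0.091 for Kmt2d and -0.073 to 0.25 for Tet3.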
